A study of Mus musculus with 144 samples.

Results

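The contrast described here asked how the response of circulating leukocytes to a burn differed from their response to trauma-hemorrhage 1 day after injury. It was the difference between 2 effects: burn minus burn sham, less trauma-hemorrhage minus trauma-hemorrhage sham. Each of the 4 groups held 4 arrays, so the contrast used 16 of the 144 arrays of the series, chosen by their labels and not by any measured value. All genes that passed a filter on low signal entered it, 14651 in all.

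The burn group held leukocytes from blood drawn 1 day after the burn injury, and its controls were sham animals of the burn model at 1 day. The trauma-hemorrhage group held the same cells at 1 day in the trauma-hemorrhage model, with that model's own sham animals as controls. All 4 groups were leukocytes of individual mice, taken by cardiac puncture and freed of red cells by lysis. Strain, age, sex, the size of the burn and the course of the hemorrhage are not given in the sources used here. Blood arrays of the trauma-hemorrhage model also have burn in their titles, but are described as trauma-hemorrhage, which was taken as their group. Signals were deposited on a linear scale with the mean of every array set to the same value, so every difference below is relative to the RNA of its own array.

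Burns and hemorrhage both raise adrenal and sympathetic activity, release neutrophils from the marrow and remove lymphocytes from blood. Glucocorticoids act through a nuclear receptor that induces genes such as Per1, Tsc22d3 and Fkbp5 and represses many cytokine genes. Interferons act through STAT factors and IRF9, which bind the interferon-stimulated response element in front of antiviral genes such as Ifit1 and Usp18. Platelets and reticulocytes carry RNA without a nucleus, so a preparation of leukocytes can hold RNA of either even after red cells have been lysed.

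The labelled cell type was checked against fixed marker lists. On the 8 sham arrays the summed signal was 113370 to 130986 for B cell markers, 59596 to 70443 for T cell markers and 71344 to 126990 for mature neutrophil markers. Heart muscle markers, which cardiac puncture could carry over, summed to 673 to 971 on the burn arrays, above their shams at 355 to 511, and to 351 to 704 after trauma-hemorrhage, overlapping shams at 245 to 592. Markers of stroma and vessel wall summed to 1762 to 4819 after trauma-hemorrhage, above shams at 1244 to 1697, and to 1002 to 2306 after burn, overlapping shams at 1012 to 1982. The part of these cells in the results was not tested. Markers of red cell precursors and of platelets were well represented, at 71082 to 285022 and 67050 to 354883. Pairs of arrays within a group correlated at 0.907 to 0.969 in log2 signal. In the trauma-hemorrhage group replicate 2 stood apart from the other 3 arrays, with a B cell sum of 21146 against 76437 to 100658 and a neutrophil secondary and tertiary granule sum of 180189, the highest of its group, and several list counts below are also given without it. The trauma-hemorrhage arrays had brighter control probe sets than their shams, at 9184 to 10826 against 5680 to 7012, and a lower 3' to 5' signal ratio of Gapdh, at 1.66 to 2.54 against 2.51 to 3.31. The burn arrays and their shams overlapped in both measures, at 5836 to 9470 against 5734 to 6556 and 1.87 to 2.88 against 1.91 to 2.63. Both highest burn values were those of replicate 3, whose control signal lay within the trauma-hemorrhage range. Over all probe sets its median correlation with its group was 0.911, and that of replicate 2 of the trauma-hemorrhage group was 0.909. Its interferon and erythroid sums were 121859 and 177699, against 70955 to 83499 and 71082 to 118491 on the other burn arrays.

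Of the 14651 genes, 2326 passed an adjusted p of 0.05 in the difference of effects, which is 15.9% of those tested. In 1071 genes (7.31%) the burn effect was the higher one and in 1255 (8.57%) the lower one. The called differences ran from 0.535 to 5.592 on the log2 scale without regard to sign, with a median of 1.621, and 676 exceeded 4-fold, 243 of them higher and 433 lower. Leaving out each of the 16 arrays in turn kept 1497 of the 2326 calls (64.4%) in all 16 fits. The median difference over all genes was -0.116, which serves as the reference for the list medians below. In the same way the shares of 7.31% higher and 8.57% lower serve as the reference for the list counts in the difference. In the self-test on simulated effects over the same number of genes, a difference of 2 on the log2 scale was recovered in 48% of cases and one of 1 in 6%. That test made only 122 calls, so its adjusted threshold was stricter than the one behind the 2326 calls here. Its shares therefore do not give the reach of this contrast, where called differences began at 0.535. Genes ranked by size below are those called in all 16 of these fits with a mean signal of at least 500 in 1 group, the 12 largest in each direction.

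The separate effects place these calls. Burn changed 3720 genes (25.4%), 1349 higher (9.21%) and 2371 lower (16.2%), and trauma-hemorrhage changed 2511 (17.1%), 1042 higher (7.11%) and 1469 lower (10%). The shares in each direction serve as the reference for all list counts in the separate effects below. Without replicate 2 of the trauma-hemorrhage group its count of 2511 was 1474, and the classes below were not recounted without that array. Both effects were higher in 154 genes, which is 11.4% of the genes that rose after burn and 14.8% of those that rose after trauma-hemorrhage. Both were lower in 605 genes, 25.5% and 41.2% of the genes that fell. Opposite calls were made in 128 genes that rose after burn and fell after trauma-hemorrhage and in 88 that fell after burn and rose after trauma-hemorrhage. All genes of both classes also passed in the difference, which is nearly fixed by construction, because effects of opposite sign add up in it. The widest class of called differences held genes called after burn but not after trauma-hemorrhage. Of these, 576 that rose and 624 that fell after burn passed in the difference. Genes called after trauma-hemorrhage but not after burn contributed 362 that rose and 270 that fell after it. A missing call is not an absent effect. Il7r, described below, had no call after trauma-hemorrhage at an effect of -0.59 ± 0.29. Across the 14651 genes, which are not independent replicates, the 2 effects correlated at r = 0.321, and they share no array.

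**Figure D1:**
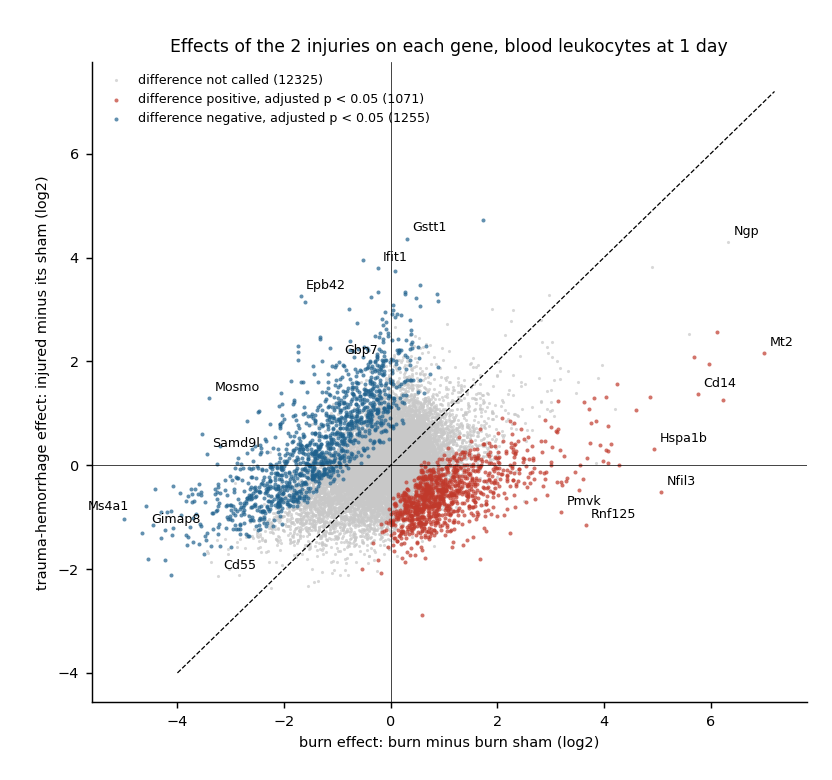
Effect of burn (x axis, burn minus burn sham, log2) against effect of trauma-hemorrhage (y axis, injured minus its sham, log2) for each of the 14651 genes in blood leukocytes at 1 day, 4 arrays a group. The dashed line marks equal effects. Genes with a positive called difference (1071, red) lie below it and genes with a negative called difference (1255, blue) above it. Nfil3 lies far to the right near the horizontal axis, Cd14 and Mt2 lie far to the right at trauma-hemorrhage effects of 1.36 and 2.16, and Ifit1 and Epb42 lie high and near or left of the vertical axis.

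Genes of the interferon response were called mostly higher after trauma-hemorrhage, and after burn more were called lower than higher. Over all genes 7.11% rose after trauma-hemorrhage, 16.2% fell after burn and 8.57% were lower in the difference. Of 44 tested members, 29 were lower in the difference of effects and none was higher, with a median of -1.75. After burn 18 members fell and 1 rose, with a median of -0.88, and after trauma-hemorrhage 25 rose and none fell, with a median of 1.04, or 20 without replicate 2 of the trauma-hemorrhage group. Because both effects are measured in whole leukocyte RNA, fewer cells of a type and less RNA per cell cannot be told apart here or in any list below. The sum of the members' signals was 226582 to 268350 on the 4 trauma-hemorrhage arrays, above all 12 others, which lay at 70955 to 131120. The count of members lower in the difference was 26 to 30 when each array in turn was left out, 30 with the control signal and 26 with the Gapdh ratio as a covariate.

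Promoters of a few of these genes are shown because they carry the element through which interferon signalling acts. Each window runs from 250 bases before to 50 bases after the start in RefSeq (build GRCm38.p6), on the gene's own strand, and capitals mark matches, on either strand, to GAAA followed after 2 bases by a second GAAA.
Ifit1 (chr19:34640639-34640938, plus strand): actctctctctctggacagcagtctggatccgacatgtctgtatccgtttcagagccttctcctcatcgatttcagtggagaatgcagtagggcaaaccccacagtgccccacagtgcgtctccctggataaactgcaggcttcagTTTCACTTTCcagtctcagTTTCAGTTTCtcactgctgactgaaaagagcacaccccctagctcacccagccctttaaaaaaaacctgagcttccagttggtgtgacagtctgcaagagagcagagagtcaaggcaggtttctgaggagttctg
Gbp7 (chr3:142530086-142530385, plus strand): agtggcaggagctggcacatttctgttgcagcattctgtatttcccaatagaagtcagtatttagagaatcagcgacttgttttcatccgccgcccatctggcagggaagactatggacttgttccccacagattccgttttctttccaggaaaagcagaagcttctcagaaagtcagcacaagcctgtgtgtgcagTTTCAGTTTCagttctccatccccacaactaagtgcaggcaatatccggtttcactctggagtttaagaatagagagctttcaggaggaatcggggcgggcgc
Trim30a (chr7:104465144-104465443, minus strand): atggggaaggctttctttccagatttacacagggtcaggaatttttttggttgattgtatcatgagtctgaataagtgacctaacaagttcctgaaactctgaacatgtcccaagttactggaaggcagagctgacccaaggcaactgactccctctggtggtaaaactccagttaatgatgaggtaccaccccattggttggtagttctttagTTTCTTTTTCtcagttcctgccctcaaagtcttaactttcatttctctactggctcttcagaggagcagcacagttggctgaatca
The window of Ifit1 holds 2 matches, which begin 104 and 85 bases before the start. Gbp7 and Trim30a hold 1 each, 53 and 36 bases before the start, and for Trim30a the table lists 2 starts, of which the one shown holds the match. A promoter entry was found for 32 of the 44 members, and 18 of them (56.2%) held the motif, against 3.44% of all 32851 windows and 3.99% of the 27025 genes. A match describes these letters and does not show binding.

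Ifit1, an antiviral protein that binds RNA lacking a host cap, had signals of 16711, 11546, 9609 and 13059 on the trauma-hemorrhage arrays and 685, 655, 1629 and 778 on their shams. On the burn arrays it was at 301, 443, 3219 and 759, and on the burn shams at 946, 1193, 687 and 903. Trauma-hemorrhage arrays lay far above all others, while burn overlapped its sham, with replicates 1 and 2 below the sham range, replicate 4 within it and replicate 3 above it. Its difference of effects was -4.04 ± 0.64 on the log2 scale (± SE, adjusted p = 4.1e-06). Usp18, a protease that removes ISG15 and damps interferon receptor signalling, showed the same order on the trauma-hemorrhage side, at 3591, 3213, 1967 and 2895 against 286, 962, 745 and 635 in the sham. In contrast to Ifit1, the burn arrays of Usp18 lay below most of their shams, at 40.8, 71.3, 461 and 68.6 against 873, 523, 269 and 276, with replicate 3 of the burn group inside the sham range. The difference was -3.92 ± 0.65 (adjusted p = 9.3e-06).

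Samd9l, an interferon-induced restriction factor, differed through the burn side. Its burn arrays read 738, 617.5, 491 and 258 and the burn shams 6077, 6566, 5125 and 5176, with no overlap. The trauma-hemorrhage arrays, at 7158, 4752, 5070.1 and 7216, overlapped their shams at 4232, 5662, 5034 and 5715. The difference of -3.66 ± 0.32 (adjusted p = 1.3e-12) was therefore made almost entirely by the burn effect of -3.45 ± 0.23. Herc6, the ligase that attaches ISG15 in mice, moved in both models: it was at 51.6 to 122 after burn against 334 to 516 in the sham, and at 837 to 1785 after trauma-hemorrhage against 259.6 to 689. Neither injured group overlapped its sham, and the difference was -3.51 ± 0.49 (adjusted p = 3.6e-07). Trim30a, a restriction factor of the TRIM family, gave -1.92 ± 0.24 (adjusted p = 3.7e-08), with burn arrays at 5312 to 6981 and trauma-hemorrhage arrays at 19442 to 26655 on either side of the shams, which ran from 13548 to 17243.

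Gbp7, a guanylate-binding protein induced by interferon gamma, was called in opposite directions in the 2 models. On the burn arrays it was at 1608, 1501, 2561 and 1923, below all shams at 4159.5, 3409, 3484 and 3645. On the trauma-hemorrhage arrays it was at 19527, 8555, 16816 and 22188, above all shams at 3074, 4569.5, 4329 and 3931. The difference was -2.97 ± 0.34 (adjusted p = 2.6e-09). Ifit1bl1, a relative of Ifit1, followed the same pattern with burn arrays at 155 to 302 against 1353 to 1965 and a difference of -3.56 ± 0.38, although its trauma-hemorrhage arrays, at 2115 to 6398, overlapped shams at 1597 to 2527. Parp11, an ADP-ribosyltransferase that acts on interferon receptor turnover and is not on the list, was low on the burn arrays, at 128, 8.93, 8.71 and 198 against 2144, 2142, 1647 and 1595 in the sham, with a difference of -3.96 ± 0.49 (adjusted p = 2.3e-08). After trauma-hemorrhage it was at 436 to 1739 against 1254 to 1600.0, which did not pass. The gene of interferon gamma was higher after burn. Ifng, made by natural killer and T cells, was at 775, 444, 1431 and 465 on the burn arrays against 97.4, 161, 95.6 and 148 in the sham, and at 2.42, 55.7, 147 and 95.1 after trauma-hemorrhage against 221, 98.8, 224 and 262. Only burn separated from its sham, and the difference was 3.53 ± 0.76 (adjusted p = 5.1e-04).

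**Figure D2:**
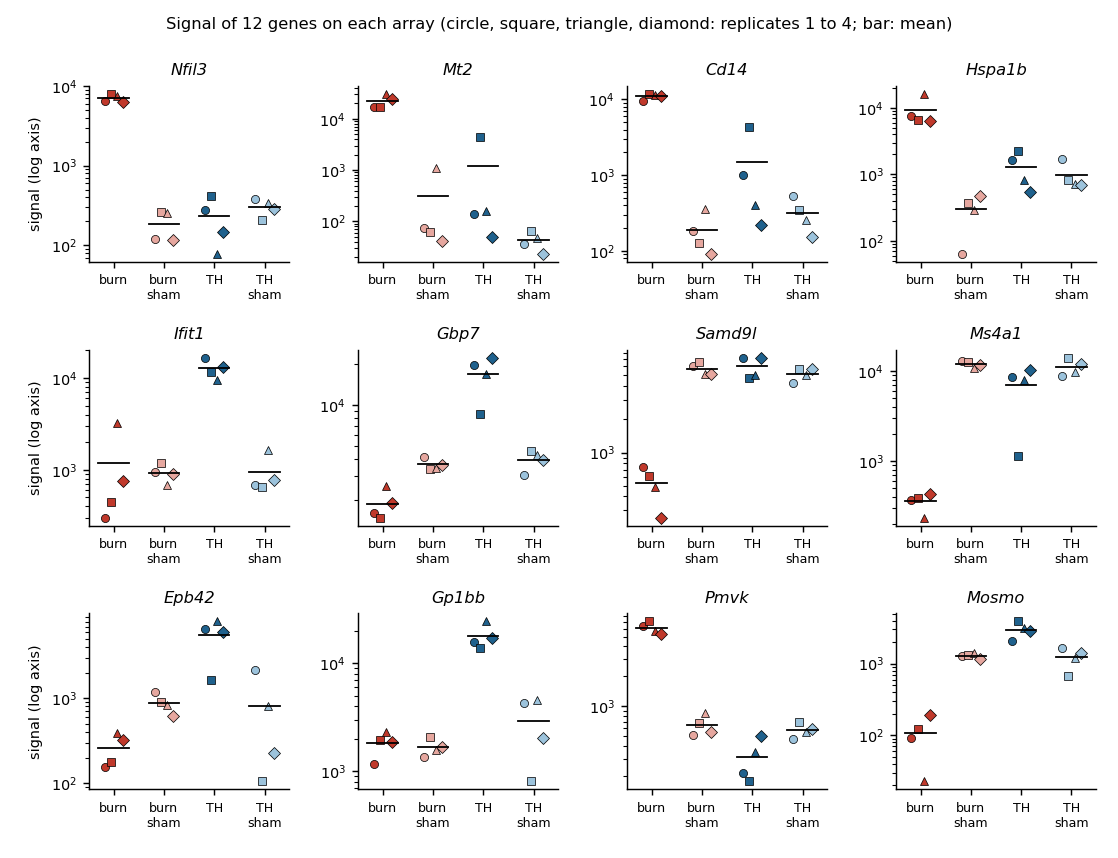
Signal (y axis, linear intensity on a log axis) of 12 genes on each of the 16 arrays, grouped as burn, burn sham, trauma-hemorrhage (TH) and TH sham on the x axis. Symbols mark replicates 1 to 4 and the bar is the mean of 4. Nfil3, Hspa1b and Pmvk are high on the 4 burn arrays alone, Ifit1 and Gp1bb on the 4 TH arrays, and in Mt2, Cd14, Ms4a1 and Epb42 replicate 2 of the TH group (square) stands apart from the other 3.

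In the B cell, GIMAP, T cell and natural killer lists more members fell after burn than after trauma-hemorrhage. The same held over all genes, of which 16.2% fell after burn and 10% after trauma-hemorrhage, and 8.57% were lower in the difference. Among 22 B cell markers 10 were lower in the difference and none higher, with a median of -1.32. After burn 20 of the 22 fell (median -2.48) and after trauma-hemorrhage 17 fell (median -1.25). The burn arrays summed to 23333 to 28844 against 113370 to 127083 in their sham. Without replicate 2 of the trauma-hemorrhage group, whose B cell sum was as low as those of the burn group, the count after trauma-hemorrhage was 4 and the count in the difference was 16. Ms4a1, which encodes the B cell surface protein CD20, shows the pattern. It was at 368, 387, 234 and 431 on the burn arrays against 12994, 12728, 10959 and 11852 in the sham, and at 8734, 1139.8, 8006 and 10359 after trauma-hemorrhage against 8889, 14219, 9807 and 11981 in that sham. The burn arrays were all below every other array, and the trauma-hemorrhage group overlapped its sham on 1 of its arrays, with replicate 2 far lower. The difference was -3.97 ± 0.55 (adjusted p = 2.9e-07), and -4.70 to -3.66 over the fits that left out 1 array. Bank1, an adaptor of B cell receptor signalling, gave -2.98 ± 0.44, and Fcmr, the receptor for IgM, gave -2.90 ± 0.50. Smaller differences were found for the B cell regulators Bach2 at -1.68 ± 0.43 and Pou2af1 at -1.48 ± 0.32. Fcer2a, the low-affinity IgE receptor CD23, was among the genes that fell most in both models, and its difference of -2.0004 ± 0.69 (adjusted p = 0.0362) was lost in 9 of the 16 fits that left out 1 array.

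The GIMAP genes, which encode GTPases that sustain lymphocyte survival and lie in 1 cluster on mouse chromosome 6, were lower in the difference in 6 of 8 tested members (median -1.55). After burn 7 of 8 fell (median -2.52) and after trauma-hemorrhage 3 fell (median -0.77), or none without its replicate 2 and 5 without its replicate 4. Gimap8 had signals of 434, 440.4, 743 and 476 on the burn arrays and 13668, 13132, 13214 and 11975 in their sham. In the trauma-hemorrhage group it was at 8158, 2769, 8284 and 9659.6 against 11923, 11382, 11380.1 and 10669, where replicate 2 was again the lowest and all 4 lay below the shams. Its difference was -3.79 ± 0.32 (adjusted p = 4.8e-13), a 13.8-fold ratio of the 2 effects. Gimap4 at -2.31 ± 0.36, Gimap1 at -2.25 ± 0.42, Gimap7 at -1.56 ± 0.43 and Gimap3 at -1.52 ± 0.31 followed in size.

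T cell markers were lower in the difference in 5 of 26 (median -0.46), with 17 lower after burn and 10 after trauma-hemorrhage. The latter count was 4 without replicate 1 or 2 of the trauma-hemorrhage group, and 5 and 6 without replicates 2 and 4 of its sham. Il7r, the receptor for interleukin 7 on which naive T cells depend, was at 358, 474, 545 and 361 after burn and 6113, 6883, 5998 and 6531 in the sham. In the other model it was at 3384, 5706, 3754 and 4890.3 against 6081, 6169.7, 6463 and 7562, with all 4 arrays below their shams, but this effect did not pass (adjusted p = 0.154). Here replicate 2 of the trauma-hemorrhage group was the highest of its group, and the difference was -3.21 ± 0.41 (adjusted p = 4e-08). Themis, which tunes T cell receptor signalling, gave -2.11 ± 0.54, and Bcl11b, the factor that fixes T cell identity, gave -1.60 ± 0.38. Each of these genes had 3 other probe sets, of which only 2 had the same sign, without a call. Cd27, a costimulatory receptor, was at -1.57 ± 0.48, and Cd3g, a chain of the T cell receptor complex, at -1.53 ± 0.45, a call lost without replicate 4 of the trauma-hemorrhage group.

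Natural killer and cytotoxic genes were lower in the difference in 8 of 20 members and higher in 1, Ifng, described above. Burn lowered 11 of them and trauma-hemorrhage 1, which became 4 and 3 without replicates 3 and 4 of that group. The list median was -1.26 in the difference. Klrd1, the CD94 chain of natural killer receptors, was at 938, 601, 962 and 413 on the burn arrays and 4168, 4435, 3567 and 3718 in their sham. It was at 1281, 834, 2006 and 2608 after trauma-hemorrhage and 2492, 2190.4, 3242 and 3094 in the sham. Burn did not overlap its sham and trauma-hemorrhage did, and the difference was -1.66 ± 0.44 (adjusted p = 0.005). Klra8, the activating receptor Ly49H, gave -2.39 ± 0.64 and Nkg7, a protein of cytotoxic granules, -1.90 ± 0.52. Styk1, a kinase-like protein of natural killer cells, was called at -2.21 ± 0.61, with a single trauma-hemorrhage array, replicate 2, at 2996 and the other 15 arrays at 67.5 to 958.

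Genes of antigen presentation did not follow a single direction. Among 11 tested class II genes 6 fell after burn and 6 after trauma-hemorrhage, 1 was higher in the difference and 2 lower. Without replicate 2 of the trauma-hemorrhage group 4 were lower in the difference and 2 fell after trauma-hemorrhage, a count that was 3 without replicate 2 of its sham. H2-Eb2 was the lowest at -3.31 ± 0.53, with burn arrays at 6.76 to 64.3 and burn shams at 975 to 1377. H2-DMb2, a chain of the peptide exchange protein, was at -1.20 ± 0.39 (adjusted p = 0.0251), a call lost in 5 of the fits that left out 1 array. Cd86, a costimulatory ligand that activated cells raise, went up after burn, at 889, 558, 953 and 863 against 173, 238, 201 and 240.3, and down after trauma-hemorrhage, at 205, 129, 122 and 119 against overlapping shams at 154, 391.9, 365 and 296. Its difference was 2.65 ± 0.44 (adjusted p = 9.3e-06). Class I genes gave 1 higher and 1 lower of 15: H2-D1 at 1.04 ± 0.32, whose 8 other probe sets had no call and whose own call was lost without replicate 3 or 4 of the trauma-hemorrhage sham, and the immunoproteasome subunit Psmb9 at -1.14 ± 0.33.

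Red cell and platelet genes were called mainly on the trauma-hemorrhage side. Of 27 erythroid genes, 13 were lower in the difference (median -1.48) and none higher. Trauma-hemorrhage raised 18 of them (median 1.501), and burn lowered 3 (median -0.23). Over all genes 7.11% rose after trauma-hemorrhage and 16.2% fell after burn, so the 3 are below the share of all genes. The count of 18 became 10 and 11 without replicates 2 and 4 of the trauma-hemorrhage sham, 17 without replicate 2 of the injured group, and the count of 13 was 9 to 14 over the fits that left out 1 array. Summed erythroid signal was 184335 to 285022 after trauma-hemorrhage against 78140 to 153498 in its sham, and 71082 to 177699 after burn against 103604 to 118561. With the control signal as a covariate 11 erythroid genes were lower in the difference (median -0.85), and with the Gapdh ratio 22 (median -2.04). Both measures differed between the trauma-hemorrhage arrays and their shams, and their part in the result was not tested beyond these fits.

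Epb42, a protein of the red cell membrane skeleton, had the most negative difference of all genes ranked. Its signals were 6623, 1636, 8026 and 6080.4 after trauma-hemorrhage and 2125, 105, 816 and 226 in that sham. On the burn side they were 155, 176, 389.5 and 324 against 1173, 894, 827 and 624, a fall that missed the threshold (adjusted p = 0.0586). Replicate 2 was the low array of both trauma-hemorrhage groups, and the injured and sham groups overlapped there. The difference was -4.95 ± 0.96 (adjusted p = 1.2e-04), -5.65 to -4.32 over the fits that left out 1 array. Car2, the carbonic anhydrase of red cells, followed at -3.39 ± 0.70, with trauma-hemorrhage arrays at 39179, 12528, 42528 and 35672 against shams at 15737, 2024, 10826 and 4005. Nfe2, a factor of the erythroid and platelet lineages, was at 2446, 5812, 2469 and 2675 after trauma-hemorrhage, above all of its shams at 1371, 1448, 1377 and 1212, and its difference was -1.73 ± 0.37 (adjusted p = 4.2e-04). Uros and Cpox, enzymes of heme synthesis, fell after burn. Uros was at 14.04 to 95.5 against 206 to 355 in the burn sham and Cpox at 174 to 654 against 876 to 1069. After trauma-hemorrhage the effect of Uros was -0.18 ± 0.34. Cpox was then at 2199, 429, 3114 and 2265 against 1292, 1271, 721 and 564 in that sham, an effect of 0.82 ± 0.45 that did not pass. The differences of Uros and Cpox were -1.85 ± 0.49 and -2.40 ± 0.63, but of the 2 other probe sets of Cpox only 1 had the same sign, without a call.

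Several of the other strongly negative genes behaved like Epb42 across arrays. Gstt1, a glutathione transferase, was at 3659, 426, 6526 and 4430.1 after trauma-hemorrhage and 243, 119, 64.8 and 35.8 in the sham. Tspan8, a tetraspanin, was at 4145, 204, 5695 and 4036 against 694, 181, 271 and 48.8. Hjv, the hemojuvelin coreceptor of iron sensing, was at 877, 131, 1408 and 1630.2 against 42.2, 3.71, 1.64 and 36.2. In each of these genes replicate 2 was the lowest trauma-hemorrhage array, and for Gstt1 and Hjv all 4 arrays still lay above their shams, whereas Tspan8 overlapped. Differences were -4.06 ± 1.02, -4.75 ± 1.03 and -4.47 ± 0.77, but of 4 other probe sets for Tspan8 only 2 had the same sign and none was called. Diaph3, a formin of dividing cells, was at 2034, 1623, 4282 and 4397 after trauma-hemorrhage and 177, 338, 442 and 319 after burn, with shams of both models at 252 to 1323. The difference of Diaph3 was -4.03 ± 0.70 (adjusted p = 2e-05).

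Platelet and megakaryocyte genes rose after trauma-hemorrhage in 17 of 18 members (median 1.60), or 13 without replicate 2 of that group, and after burn in 2 (median 0.21). Only 3 passed in the difference, all lower, with a median of -1.36, and 5 without replicate 1 of the trauma-hemorrhage group. Summed platelet signal was 304630 to 354883 on the trauma-hemorrhage arrays, above the 96798 to 155464 of their shams. It was 68562 to 100982 after burn and 67050 to 78721 in the burn sham. The 2 sham groups thus did not overlap. The list median of burn sham minus trauma-hemorrhage sham was -0.94, with no member called, and this sham difference enters the difference of effects. The count of 3 was 12 with the Gapdh ratio as a covariate (median -1.94), 15 in a fit of the 16 arrays alone and 7 with the hybridization day as a block, so it depends on the fit. Gp1bb, a chain of the von Willebrand factor receptor, was at 15863, 14003, 24503 and 17132 after trauma-hemorrhage and 4288, 806, 4562 and 2013 in the sham. On burn arrays it was at 1157, 1961, 2331 and 1855, overlapping the burn shams at 1365, 2079.6, 1583 and 1697. Its difference was -2.77 ± 0.78 (adjusted p = 0.0086). Itgb3, the beta chain of the fibrinogen receptor, gave -1.65 ± 0.45, and its partner Itga2b gave -1.48 ± 0.55, which did not pass (adjusted p = 0.0538). Rgs18, a brake on platelet receptor signalling, passed at -1.68 ± 0.52, a call lost without replicate 1 of the burn group.

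Genes of glutathione and antioxidant defence were lower in the difference in 5 of 20 members (median -0.60) and higher in 1. The 5 became 9 in a fit of the 16 arrays alone and 8 with the Gapdh ratio as a covariate. Trauma-hemorrhage raised 10, or 6 without replicate 2 of its sham, and burn raised 5, or 3 without replicate 2 of the burn sham. Gclm, the modifier subunit of the enzyme that limits glutathione synthesis, was at 7719, 8064, 12187 and 11269.8 after trauma-hemorrhage and 2784, 1825, 3499.9 and 2134 in the sham, with a difference of -2.96 ± 0.60 (adjusted p = 2.3e-04). Prdx2, a peroxiredoxin abundant in red cells, gave -2.07 ± 0.56 and the quinone reductase Nqo1 -1.92 ± 0.54. Txnrd1, thioredoxin reductase, was the member that was higher after burn, at 6489, 7828, 7082 and 7374 against 2214, 2277, 2268 and 2295, with a difference of 1.71 ± 0.32 (adjusted p = 7.3e-05). Its trauma-hemorrhage arrays, at 1653 to 2495, lay within or near their shams at 1724 to 2512.

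**Figure D3:**
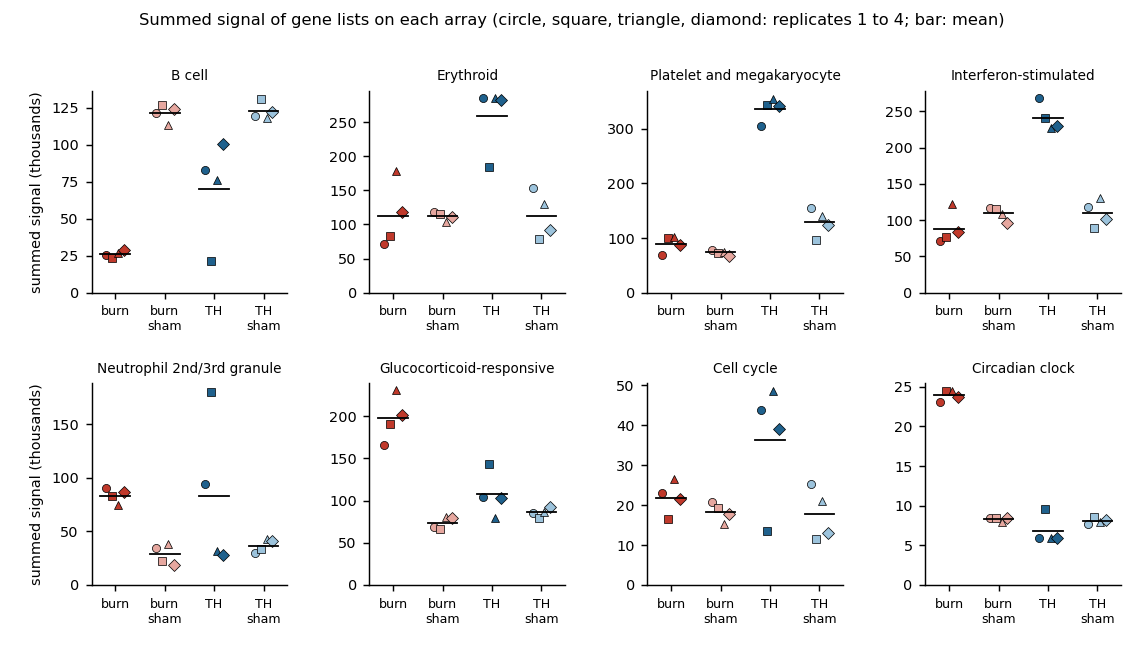
Summed signal (y axis, intensity units, scaled as on the axis label) of 8 gene lists on each of the 16 arrays, grouped as burn, burn sham, trauma-hemorrhage (TH) and TH sham. Symbols mark replicates 1 to 4 and the bar is the mean of 4. B cell sums are lowest on the burn arrays and on replicate 2 of the TH group, platelet and interferon sums are highest on the 4 TH arrays, and clock sums are highest on the 4 burn arrays.

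The genes with the largest positive differences included many that glucocorticoids induce. Of 22 tested members of that list, 10 were higher in the difference and none lower, with a median of 1.11. Burn raised 17 (median 2.01) and trauma-hemorrhage 4 (median 0.45), or none without its replicate 2 and 1 without replicate 2 or 4 of its sham. Summed signal was 166255 to 230673 after burn, 65972 to 80795 in the burn sham, 79007 to 143775 after trauma-hemorrhage and 79864 to 92147 in that sham. Per1, a clock gene that glucocorticoids induce directly, was at 1923, 1727, 1452 and 1449.8 after burn and 58.7, 118, 121 and 176 in the sham. The trauma-hemorrhage arrays had 69.9, 288, 76.7 and 105, on both sides of its sham at 182, 181, 162 and 178. The difference was 4.01 ± 0.55 (adjusted p = 2.7e-07). Cdkn1a, the cell cycle inhibitor p21, was at 6405, 7603, 5892 and 6448 against 131, 242, 279 and 155 in the burn model, with a difference of 3.55 ± 0.73. Tgm2, transglutaminase 2, gave 2.68 ± 0.57.

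Ddit4, an inhibitor of mTOR that hypoxia and glucocorticoids raise, differed more between the shams than between the injured groups. It was at 20059, 20406, 26459 and 20009.9 after burn and 4807, 3471, 3819 and 5374 in the burn sham, but at 12787, 14181, 7708 and 17017 after trauma-hemorrhage and 13112, 10818, 11093 and 13702 in that sham. The 2 sham groups did not overlap, and Ddit4 was 1 of only 5 genes called between them. The burn sham was lower at -1.49 ± 0.30, and the injured groups with no sham subtracted differed by 0.80 ± 0.30. Its difference of effects was 2.28 ± 0.43 (adjusted p = 8e-05).

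Mt2, a metallothionein induced by glucocorticoids, zinc and cytokines, rose from 73.2, 62.8, 1081 and 41.0 in the burn sham to 17022, 17207, 30591 and 24469 after burn. Trauma-hemorrhage arrays were at 137, 4391, 162 and 48.9, with shams at 36.1, 66.5, 47.1 and 23.6. Replicate 3 of the burn sham and replicate 2 of the trauma-hemorrhage group were each far above the rest of their group. Its difference was 4.85 ± 1.10 (adjusted p = 0.001) and ran from 4.17 to 6.10 when single arrays were left out. Il1r2, the decoy receptor that binds interleukin 1 without signalling, was at 13903, 16613, 18842 and 15223 after burn against 295, 181, 448 and 96.8. Its trauma-hemorrhage arrays were at 2061, 13749, 776 and 524 against 456, 472, 532 and 397, where replicate 2 came close to the burn arrays, replicates 1 and 3 lay above the shams and replicate 4 lay among them. The difference was 4.03 ± 0.89 (adjusted p = 7.2e-04), 3.44 to 4.98 over the fits that left out 1 array.

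Nfil3, a transcription factor of the clock output that also directs innate lymphoid cell development, had the largest positive difference of all genes ranked. It was at 6516, 7958, 7487 and 6264 after burn and 119.6, 262, 252 and 118 in the sham. The trauma-hemorrhage arrays, at 279, 420.3, 78.8 and 148, overlapped their shams at 384, 207, 337 and 285. This gave 5.59 ± 0.80 (adjusted p = 8.1e-07), a 48.3-fold ratio of the effects. Of 16 tested clock genes 4 were higher in the difference and none lower (median 0.81). Burn raised 6 and lowered 1, and trauma-hemorrhage changed none at the threshold. Clock genes summed to 23028 to 24503 on the burn arrays and to 5934 to 9556 on the other 12. Bhlhe40, a repressor within the clock, was at 4501, 4142, 3138 and 3424 after burn against 479, 368, 689 and 564, with a difference of 2.93 ± 0.68. Ciart, another repressor of the clock, gave 2.17 ± 0.63, a call lost without replicate 4 of the trauma-hemorrhage sham or with a pseudocount of 1. Nr1d2, the nuclear receptor REV-ERB beta, was at 1.07 ± 0.39, just outside the threshold (adjusted p = 0.0549). The hour of blood sampling is not given in the sources used here, and its part in the clock values was not tested.

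Pdk4, a kinase that spares glucose by inhibiting pyruvate dehydrogenase, was at 4913, 5381, 2390.3 and 6275 after burn and 17.2, 16.8, 119 and 2.52 in the sham. Trauma-hemorrhage arrays read 147, 594, 3.08 and 4.52 against 57.9, 5.64, 7.18 and 0.88. Burn lay far above all other arrays, and the difference was 4.98 ± 1.22 (adjusted p = 0.0023), a call that did not survive a pseudocount of 1. Among 13 genes of fatty acid use 3 were higher in the difference and 1 lower, against 7.31% and 8.57% of all genes. Besides Pdk4 the higher ones were Hadhb at 1.15 ± 0.34 and Acadvl at 1.46 ± 0.47, both enzymes of mitochondrial beta-oxidation. The call of Hadhb was lost without replicate 2 of the trauma-hemorrhage group or of its sham, and that of Acadvl without replicate 1 of the burn sham. The lower one was the fatty acid transporter Cd36 at -2.53 ± 0.81, which platelets also carry, with trauma-hemorrhage arrays at 4649, 1296, 9357 and 5856 against 1437, 177, 2060.2 and 518. That call was lost without replicate 3 of the trauma-hemorrhage group or replicate 2 of its sham.

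Genes of glycolysis and the hypoxia response were higher in the difference in 5 of 24 and lower in 3, against 7.31% and 8.57% of all genes. The 5 became 8 without replicate 2 of the trauma-hemorrhage group. Burn raised 10 and lowered 3, and trauma-hemorrhage raised 3, or 1 without replicate 4 of the injured group or replicate 2 or 3 of the sham. Pfkfb3, which makes the activator of phosphofructokinase, was at 3428, 3514, 4467 and 3733 after burn against 563, 663, 680.4 and 667, with a difference of 1.98 ± 0.42 (adjusted p = 4.9e-04). Hif1a, the oxygen-regulated subunit of HIF-1, was at 13313, 14032, 16155 and 14407 against 5931, 5452, 5165 and 4360.5. Burn and sham did not overlap in either gene, and the difference of Hif1a was 1.27 ± 0.27. Slc2a1, the glucose transporter GLUT1, gave 1.48 ± 0.34 and the platelet-type phosphofructokinase Pfkp 2.29 ± 0.37. Aldoa, an aldolase, was lower at -1.39 ± 0.32.

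A list of heat shock and cold-inducible genes, of which Cirbp is the cold-inducible one tested, was higher in the difference in 7 of 16 members (median 0.87) and lower in none. Cirbp was not among the 7. Burn raised 8, and trauma-hemorrhage raised 1 and lowered 5. The promoter of Hspa1b is shown because the heat shock factor HSF1 binds inverted repeats of GAA in front of such genes, with matches to GAANNTTC on either strand in capitals.
Hspa1b (chr17:34959189-34959488, minus strand): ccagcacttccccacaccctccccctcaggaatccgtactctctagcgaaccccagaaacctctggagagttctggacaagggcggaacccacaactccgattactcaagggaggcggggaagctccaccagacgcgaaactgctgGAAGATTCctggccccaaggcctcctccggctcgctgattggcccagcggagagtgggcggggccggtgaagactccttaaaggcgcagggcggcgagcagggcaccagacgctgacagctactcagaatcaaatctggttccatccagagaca
The match begins 104 bases before the start. Of 16 list members, Cirbp included, 14 had a promoter entry and 8 of these (57.1%) held the motif, against 7.86% of all windows and 9.04% of genes. Hspa1b, an inducible HSP70, was at 7631, 6592, 16403 and 6482 after burn and 64.04, 366, 289 and 472 in the sham. In the other model it was at 1655, 2234, 815 and 542, spread over the range of its sham at 1687, 824, 724 and 683. Its difference was 4.63 ± 0.66 (adjusted p = 5.6e-07), and its 2 other probe sets had the same sign without a call. Part of this came through the shams, which did not overlap. The burn sham was lower at -1.75 ± 0.46, which was not called, and the injured groups with no sham subtracted differed by 2.88 ± 0.46. Summed list signal also separated the shams, at 43164 to 48998 in the burn model and 50381 to 61360 in the other. Dnaja1, an HSP40 cochaperone, was higher after burn, at 5649, 5487, 5608 and 4178 against 2696, 2673, 2503 and 2272, and lower after trauma-hemorrhage, at 2084, 1922, 1746 and 1682 against 3203, 3733, 3312 and 3303. No injured array overlapped its sham, and the difference was 1.89 ± 0.32 (adjusted p = 1.3e-05). Hspd1, the mitochondrial HSP60, came to 1.25 ± 0.36 mainly through trauma-hemorrhage, at 627 to 1075 against 1415 to 1927. Hspa8, the constitutive HSC70, gave 0.85 ± 0.27. For Hspa4 the chosen probe set gave 2.22 ± 0.32, but the mean over its probe sets gave -0.68 and no call, so its direction depends on the probe set.

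Immediate-early genes, which cells transcribe within minutes of a stimulus, were higher in the difference in 8 of 20 members (median 1.23) and lower in 1. The count was 11 without replicate 2 of the trauma-hemorrhage group and 5 without replicate 1 of the burn group or replicate 3 or 4 of the trauma-hemorrhage group. Burn raised 10 and lowered 1, and trauma-hemorrhage lowered 2, or 4 without replicate 3 of its sham. Among all genes 9.21% rose and 16.2% fell after burn, and 10% fell after trauma-hemorrhage. The 2 members lowered by trauma-hemorrhage are near that share. Nr4a3, an orphan nuclear receptor, was at 5162, 3641, 4563 and 3039 after burn and 337, 443, 353 and 409 in the sham. In the trauma-hemorrhage group Nr4a3 was at 438, 39.1, 185 and 655 against 217, 449, 160.4 and 477, which overlapped. Its difference was 3.59 ± 0.69 (adjusted p = 1.0e-04). Nr4a2, its close relative, gave 3.54 ± 0.73, the AP-1 subunit Junb 2.35 ± 0.55 and Ier2 1.60 ± 0.45. Ier3, a survival gene downstream of NF-kB, gave 2.95 ± 0.86 with a trauma-hemorrhage replicate 2 at 5611, and the call was lost without replicate 4 of that group.

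Genes of NF-kB feedback were higher in the difference in 8 of 18 members and lower in 2 (median 0.88). The count of 8 was 5 without replicate 1 of the trauma-hemorrhage group and 4 with the Gapdh ratio as a covariate. Burn raised 9 and lowered 4, and trauma-hemorrhage lowered 2 and raised none, or lowered 4 without its replicate 4. Among all genes 9.21% rose and 16.2% fell after burn, and 10% fell after trauma-hemorrhage. The 2 members lowered by trauma-hemorrhage are near that share. Tnfaip3, the ubiquitin editor A20 that ends NF-kB signalling, was at 6011, 4717, 4909.5 and 4845 after burn and 721, 1068, 1029.9 and 1245 in the sham. It was at 224, 1054, 432 and 1028 after trauma-hemorrhage and 937, 929.5, 543 and 1244 in that sham. Only the burn arrays separated from their controls, and the difference was 2.90 ± 0.48 (adjusted p = 1.2e-05). Bcl3, an atypical IkB protein, gave 2.46 ± 0.51, and Tnfaip2 gave 2.08 ± 0.56. Nfkbiz, another atypical IkB protein, gave 1.32 ± 0.39, lost without replicate 3 of the trauma-hemorrhage group. Ikbke, a kinase upstream of interferon induction, was lower at -1.75 ± 0.43, with burn arrays at 46.1 to 136 against 323 to 607.

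Pattern recognition receptors were called in both directions. Of 22 members 4 were higher in the difference, where 7.31% of all genes were higher, and 3 lower, where 8.57% were lower. These counts were 5 and 2 without replicate 2 of the trauma-hemorrhage group, and the 3 became 1 with the Gapdh ratio as a covariate. Burn raised 10 and lowered 5, or 3 without replicate 3 of the burn group, while trauma-hemorrhage lowered 1 and raised none, or raised 3 without its replicate 4. Cd14, the coreceptor for endotoxin, was at 9476, 11871, 11429 and 11164 after burn and 185, 126, 353 and 92.1 in the sham. Values after trauma-hemorrhage were 1016, 4291, 402 and 218 against 524, 346, 254 and 155, with replicate 2 highest and replicates 3 and 4 inside the sham range. The difference was 4.41 ± 0.83 (adjusted p = 8e-05). Tlr2, which senses bacterial lipoproteins, was at 1888, 2034, 2065 and 1940.0 after burn against 242, 316, 418 and 237, with a difference of 2.78 ± 0.65. Tlr1, its partner in that receptor, went down, at 182, 236, 241 and 257 against 2411, 2611, 2578 and 2787, with a difference of -2.11 ± 0.39 (adjusted p = 7.7e-05). Tlr1 also fell after trauma-hemorrhage, at 959 to 2041 against 2962 to 3864. Tlr7, a sensor of single-stranded RNA, gave 2.69 ± 0.77 and Trem1, an amplifying receptor of neutrophils and monocytes, 3.00 ± 0.66.

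Cytokine and chemokine genes differed less as a list, with 2 of 20 higher, or 4 without replicate 2 of the trauma-hemorrhage group, and 1 lower. Cxcl3, a neutrophil attractant, was at 1161, 806, 1352 and 1688 after burn and 37.9, 26.8, 87.8 and 34.8 in the sham, with a difference of 3.74 ± 0.74 (adjusted p = 1.8e-04). Csf1, the macrophage growth factor, gave 1.83 ± 0.50, but of its 3 other probe sets only 2 had the same sign, without a call. Cxcl2, another neutrophil attractant, was at 14113 to 20173 after burn and at 475 to 11889 after trauma-hemorrhage, and its difference of 3.12 ± 1.30 did not pass (adjusted p = 0.0955). Tnf, at signals of 7.07 to 230 throughout, was called at -1.53 ± 0.55 (adjusted p = 0.0485), a call lost in 12 of the 16 fits that left out 1 array.

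Among 13 genes of suppressive myeloid cells 4 were higher in the difference and 1 lower (median 1.02). Burn raised 9 and trauma-hemorrhage 3, or 1 without its replicate 2. Socs3, the feedback inhibitor of cytokine signalling through STAT3, was at 2267, 2321, 2824 and 2806 after burn and 224, 58.8, 247 and 73.9 in the sham. The trauma-hemorrhage arrays, at 411, 684, 115 and 101, overlapped shams at 306, 232, 251 and 166, and the difference was 3.91 ± 0.89 (adjusted p = 0.001). Stat3 gave 2.21 ± 0.53, the interleukin 4 receptor Il4ra 1.95 ± 0.45 and the arginase Arg2 2.47 ± 0.72. Tgfb1 was lower at -1.74 ± 0.40, with trauma-hemorrhage arrays at 968 to 1885 against 349 to 768, but its 1 other probe set had the opposite sign.

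Genes of the neutrophil granules were called more often after burn than after trauma-hemorrhage. Over all genes 9.21% rose after burn, 7.11% rose after trauma-hemorrhage and 7.31% were higher in the difference. Of 18 genes of the secondary and tertiary granules, 11 rose after burn (median 1.69) and 5 after trauma-hemorrhage (median 1.013), and 2 were higher in the difference. Without replicate 2 of the trauma-hemorrhage group these last counts were 2 and 4, and without its replicate 4 the trauma-hemorrhage count was 10. Camp, the antimicrobial cathelicidin, was at 7059.6, 5338, 2421 and 4748 after burn and 83.1, 57.2, 35.7 and 59.1 in the sham. The trauma-hemorrhage arrays were at 275, 1161, 193 and 95.05 against 64.5, 4.53, 92.1 and 41.9. All 4 trauma-hemorrhage arrays lay above their shams but below all burn arrays, and the difference was 3.60 ± 1.01 (adjusted p = 0.0085). Ltf, lactoferrin, gave 3.55 ± 1.18, a call lost in 4 of the fits that left out 1 array and with the Gapdh ratio as a covariate. The summed signal of the 18 genes was 74556 to 90197 after burn against 18569 to 38169, and 28003 to 180189 after trauma-hemorrhage against 29647 to 43219, which overlapped. None of 6 primary granule genes passed in the difference.

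Of 16 markers of mature neutrophils 8 rose after burn and 6 after trauma-hemorrhage, 3 were higher in the difference and 1 lower. Among all genes 7.31% were higher in the difference and 8.57% lower. Without replicate 2 of the trauma-hemorrhage group 4 rose after trauma-hemorrhage, and 4 were higher in the difference and none lower. Hdc, which makes histamine, was at 16153, 17059, 13860.2 and 16689 after burn and 829, 953, 1233 and 612 in the sham, and at 3099, 4108, 1043 and 1129.6 after trauma-hemorrhage against 2457, 547, 2539.6 and 1345. Burn alone separated from its sham, and the difference was 3.71 ± 0.71 (adjusted p = 1.1e-04). Prok2, a secreted chemoattractant of neutrophils, went the other way at -2.44 ± 0.82. Its trauma-hemorrhage arrays were at 2645, 2509, 296 and 167, with replicates 1 and 2 far above the others, and the call was lost in 6 of the fits that left out 1 array.

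Monocyte genes split. Of 13 members 5 were lower in the difference and 1, Cd14, was higher, with a median of -1.39. Burn lowered 6 and raised 1, and trauma-hemorrhage lowered 1 and raised 1. Ccr2, the receptor that brings classical monocytes out of the marrow, was at 486, 306, 436 and 219.8 after burn and 7017, 4111, 4135 and 3784 in the sham. Ccr2 after trauma-hemorrhage was at 5995, 3360.4, 1361 and 2591 against 3259, 4070.3, 4545 and 5660.0, which overlapped, and the difference was -3.06 ± 0.71 (adjusted p = 0.0013). F13a1, the A chain of coagulation factor XIII, made by monocytes and platelets, was the gene that moved both ways. It was at 1593, 2655, 1751 and 3084 after burn, below shams at 5664, 4344, 4999 and 4682, and at 14208, 13304, 16587 and 17495 after trauma-hemorrhage, above shams at 7572, 5089.5, 7105 and 8266. Its difference was -2.30 ± 0.39 (adjusted p = 1.7e-05). Pou2f2, a POU factor of B cells and monocytes, gave -3.24 ± 0.41 and Ms4a6c -2.06 ± 0.38. C3ar1, the receptor for the complement fragment C3a, was at 1808, 2313, 2546 and 1939.7 after trauma-hemorrhage and 94.8, 288, 341 and 305 in the sham, with burn arrays at 409, 469, 247 and 139 against 488, 592, 564 and 449. Only trauma-hemorrhage separated fully, and the difference was -3.80 ± 0.70 (adjusted p = 6.4e-05).

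Genes of tissue macrophages and hemoglobin clearance rose after burn in 9 of 17 members (median 1.73), or 5 without replicate 2 of the burn group or of its sham, and in 1 after trauma-hemorrhage, or 3 without its replicate 4. None passed in the difference, or 1 without replicate 2 of the trauma-hemorrhage group. Vsig4, a complement receptor of resident macrophages, was at 461, 918, 604 and 655 after burn and 44.3, 9.07, 228 and 79.4 in the sham, and at 149.6, 12.4, 365 and 4.85 after trauma-hemorrhage. Its difference of 1.83 ± 1.13 did not pass (adjusted p = 0.317).

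**Figure D4:**
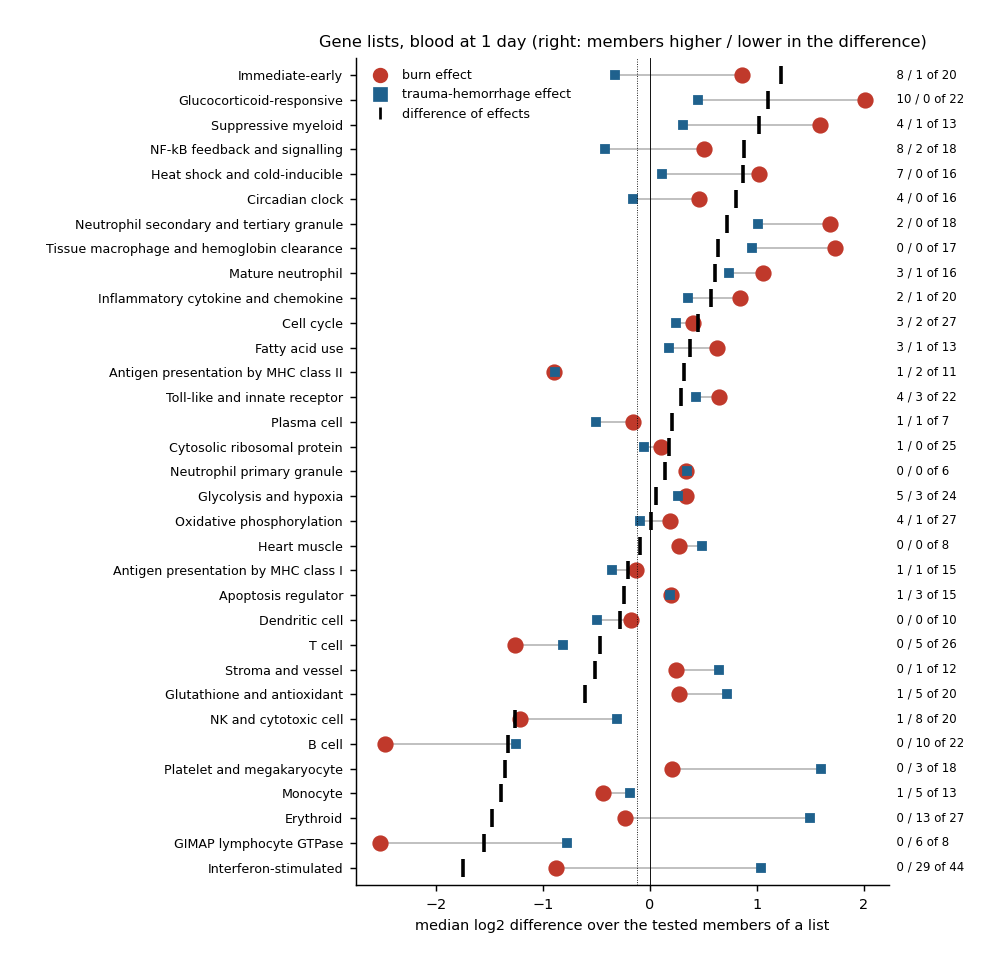
Median log2 effect of burn (red circles) and of trauma-hemorrhage (blue squares) and median difference of effects (black ticks) over the tested members of 33 gene lists in blood at 1 day. The numbers at the right count members higher and lower in the difference at an adjusted p under 0.05, and the dotted line is the median of all 14651 genes, -0.116. Interferon-stimulated, GIMAP and erythroid lists lie at the bottom, and immediate-early and glucocorticoid-responsive lists at the top.

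Genes that the injuries moved in opposite directions were called in each separate effect, but the 2 effects could differ in size. The burn effect was the larger in Pmvk and Rnf125, at 3.19 and 3.66, against -0.91 and -1.15 after trauma-hemorrhage. Pmvk, phosphomevalonate kinase of the cholesterol pathway, was at 6354, 7099, 5657 and 5343 after burn and 515, 677, 853 and 547 in the sham. After trauma-hemorrhage it was at 216, 177, 348 and 505 against 473, 694, 548 and 586. Burn did not overlap its sham, trauma-hemorrhage overlapped through replicate 4, and the difference was 4.10 ± 0.41 (adjusted p = 8e-11). Rnf125, a ubiquitin ligase that limits RIG-I signalling, was at 8306, 7769.7, 4255 and 7369 against 653, 470.0, 641 and 319.9 after burn and at 223, 699, 282 and 332 against 728, 1681, 402 and 872 after trauma-hemorrhage, with a difference of 4.80 ± 0.52 (adjusted p = 7.9e-10). Btbd1 and Cdk11b, a BTB adaptor and a kinase linked to splicing, had no overlap on either side. Btbd1 was at 5036 to 7947 against 1816 to 2694 after burn and at 1092 to 1639.8 against 2746 to 4662 after trauma-hemorrhage, and its difference was 2.88 ± 0.31. Cdk11b was at 2097 to 3138 against 701 to 875 and at 321 to 526 against 836 to 1369.9, and its difference was 2.93 ± 0.32. Mcm4, a subunit of the replicative helicase, gave 1.99 ± 0.23, and Mideas, a subunit of a histone deacetylase complex, 2.26 ± 0.29.

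In the other direction Mosmo, a regulator of the Hedgehog receptor Smoothened, was at 91.8, 121, 22.8 and 194 after burn and 1269, 1304, 1387 and 1164 in the sham. After trauma-hemorrhage it was at 2087, 3881, 3124 and 2893, above all shams at 1671, 672, 1196 and 1408. The difference was -4.70 ± 0.42 (adjusted p = 2.7e-12), the smallest adjusted p among the 24 genes ranked by size. Nlk, a kinase that acts on Wnt and Notch signalling, was at 1709.6, 1527, 1607 and 1593 after burn against 7964, 6294, 5295 and 6697, and at 14723, 14548, 17780.1 and 19989 after trauma-hemorrhage against 10163, 8100.0, 9034 and 8718. Neither model overlapped, and the difference was -2.88 ± 0.32 (adjusted p = 2e-09). Fli1, an ETS factor of blood and platelet development, was at 2813 to 3644 against 8885 to 10845 after burn and at 9911 to 14098 against 6242 to 9469 after trauma-hemorrhage, again with no overlap and with a difference of -2.24 ± 0.25. Asap1, which inactivates ARF GTPases, gave -3.22 ± 0.38. Among the ranked genes on no list, Selenon, a selenoprotein of the endoplasmic reticulum, was at 8308, 7528, 4576 and 6851 after burn against 484, 342, 391.6 and 267, with a difference of 4.04 ± 0.53. Celsr3, a cadherin known from neurons, was at 4349, 3873, 4211 and 4712 against 455, 174, 139 and 108 and gave 4.27 ± 1.09 (adjusted p = 0.0037). Nxpe2 gave -4.14 ± 0.67, but its 1 other probe set had the opposite sign.

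Genes called the same way in both models show what the injuries held in common and how far the difference could be bounded. Ngp, a neutrophil granule protein, was at 15499, 15941, 16372 and 16893 after burn and 217, 133, 218 and 129 in the sham. After trauma-hemorrhage it was at 5224, 20172, 1021 and 336 against 134, 74.7, 110.1 and 78.1. Every injured array exceeded every sham, while the trauma-hemorrhage arrays ranged widely. The 95% interval of the difference ran from -0.12 to 4.19 on the log2 scale, so these arrays bound it only loosely, and without replicate 2 of the trauma-hemorrhage group the difference passed. Saa3, an acute-phase serum amyloid protein, was at 3774, 9671, 10903 and 9521 after burn and 18559.6, 20361, 10048 and 498 after trauma-hemorrhage, with an interval of -3.19 to 2.58. Lipg, an endothelial lipase, had an interval of -1.35 to 3.53 and Stfa3, a neutrophil stefin, of -1.88 to 1.91. Among genes lower in both, Cd55, which protects cells from complement, was at 625, 594, 189.9 and 588 after burn against 4123, 5708, 4430.1 and 4277 and at 829.5, 235, 1818 and 1945 after trauma-hemorrhage against 2369, 8147, 2982 and 5195. Its interval was -2.40 to 0.17, that of the RNA-binding protein Strbp was -1.72 to 0.29 and that of the ubiquitin ligase Trim68 -1.36 to 1.61. These intervals are wide, and they do not show that the injuries acted alike.

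The remaining lists gave few calls in the difference, where 7.31% of all genes were higher and 8.57% lower. Of 15 apoptosis regulators 1 was higher and 3 lower, and the 1 became 3 without replicate 2 of the trauma-hemorrhage group or replicate 1 of its sham. Bcl2l11, the BH3 protein BIM, gave 1.24 ± 0.29, with burn arrays at 5630.3, 5882, 6869 and 7689.7 against 2662, 2286, 2229.9 and 2086. The caspase inhibitor Xiap gave -1.54 ± 0.37, the BH3 protein Bid -1.62 ± 0.40 and the caspase 8 inhibitor Cflar -1.14 ± 0.33. Of 27 cell cycle genes 3 were higher and 2 lower. Ube2c, a ubiquitin-conjugating enzyme of mitotic exit, was at 14652, 2693, 17469 and 13674 after trauma-hemorrhage, with replicate 2 low, against 4248, 1015, 3283 and 1404, and gave -2.91 ± 0.71. The spindle protein Nusap1 was at -2.43 ± 0.76, lost without replicate 2 of the trauma-hemorrhage sham. Of 27 genes of oxidative phosphorylation 4 were higher and 1 lower. The 4 became 2, 2 and 1 without replicate 1 of the burn group, replicate 1 of the burn sham and replicate 2 of the trauma-hemorrhage sham. Sdha, the flavoprotein of complex II, was the lower one at -1.10 ± 0.24, and Ndufs1 of complex I was at 1.35 ± 0.31. Of 25 cytosolic ribosomal proteins only Rpl12 was called, at 1.59 ± 0.49, and quantile normalization gave 7. Of 7 plasma cell genes Prdm1, the factor that drives plasma cell fate, was higher at 1.92 ± 0.55, and Mzb1, an endoplasmic reticulum protein of B and plasma cells, lower at -1.50 ± 0.43. Of 12 stroma genes Pecam1, also carried by platelets and leukocytes, was lower at -1.88 ± 0.45, and of 10 dendritic cell and 8 heart muscle genes none passed.

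The contrast subtracts 2 sham groups, so the shams were compared directly. Burn sham and trauma-hemorrhage sham differed in 5 genes (0.0341% of those tested) by limma at the adjusted threshold, 1 higher in the burn sham (0.00683%) and 4 lower (0.0273%), and in 1154 at an unadjusted p under 0.05. The 5 were Ddit4, Ctnna1, Nomo1 and Pcmt1, lower in the burn sham, and Dync1li1, higher, named here because they are few. Comparing the injured groups with no sham subtracted gave 4547 calls (31%), 2172 higher and 2375 lower after burn. Hybridization days were nested in the models, with burn and its sham on shared days and trauma-hemorrhage and its sham on others. Day therefore cancels within each effect, whereas the model and the day cannot be told apart in the sham comparison or in the comparison of injured groups.

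In the other settings the difference had fewer calls in blood and more in spleen. These counts do not measure its size. The B cell median was -1.324 in spleen and -1.321 in blood at 1 day, with 18 and 10 of 22 members called lower. In blood it comprised 161 genes (1.1%) at 2 hr, 52 (0.355%) at 3 days, 11 of them higher (0.0751%) and 41 lower (0.28%), and 345 (2.35%) at 7 days, all from other mice. In spleen at 1 day it comprised 4243 of 13497 genes (31.4%). Control probe sets were brighter in some of these groups, at 13635 to 25425 in the trauma-hemorrhage blood at 7 days, 5555 to 16792 at 3 days and 5491 to 24538 in burn spleen at 1 day, and the part of this in the counts was not tested.

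The interferon list was lower in the difference at 2 hr in 27 of 44 members (median -2.15), where 0.717% of all genes were lower. At 3 days no member passed (median 0.10), at 7 days 8 were higher (median 0.76), where 1.69% of all genes were higher, and in spleen at 1 day 41 of 44 were lower (median -2.63), where 19.4% of all genes were lower. Usp18 followed this course, with -4.58 ± 0.65 at 2 hr, -3.92 ± 0.65 at 1 day, -0.59 ± 0.65 at 3 days, 1.46 ± 0.65 at 7 days and -5.06 ± 0.44 in spleen. Samd9l was at -2.34 ± 0.32 at 2 hr and -3.83 ± 0.25 in spleen, both called. In spleen 18 of 22 B cell genes and 16 of 20 natural killer genes were called lower, against none and 1 in blood at 2 hr and none of either list in blood at 3 and 7 days. Gimap8 was at -3.10 ± 0.23 in spleen and at -0.35 ± 0.32 in blood at 2 hr. No erythroid gene was called lower in the other 4 settings, although the list median was -1.71 in blood at 3 days, where that of all genes was 0.121. The platelet list had 1 member called lower in spleen.

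Glucocorticoid-responsive genes were higher in 3 of 22 members at 2 hr, where 0.382% of all genes were higher, and in none at 3 days. They were higher in 2 at 7 days and in 11 of 21 in spleen, where 1.69% and 12% of all genes were higher. Per1 was at 2.34 ± 0.55 at 2 hr (adjusted p = 0.0124) and at -0.01 ± 0.55 at 3 days, and at 1.33 ± 0.44 in spleen (adjusted p = 0.0178). Mature neutrophil genes were higher in 11 of 16 members at 7 days (median 2.47), against 1.69% of all genes, where the trauma-hemorrhage arrays had the bright control probe sets given above. Hspa1b was called in spleen at 3.22 ± 0.82 but in none of the other blood settings. Pmvk and Mosmo, the opposite-direction genes with the smallest p in each class, were called at 1 day in blood and in none of the other 4 settings, where they lay at -0.46 ± 0.41, 0.04 ± 0.41, 0.33 ± 0.41 and -0.09 ± 0.26 for Pmvk and at -0.26 ± 0.42, 0.50 ± 0.42, 0.16 ± 0.42 and -0.53 ± 0.47 for Mosmo. A small difference does not make a gene unchanged. At 2 hr the effects on Pmvk were 2.99 after burn and 3.44 after trauma-hemorrhage. Whether the 1 day difference differs from the others was not tested.

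**Figure D5:**
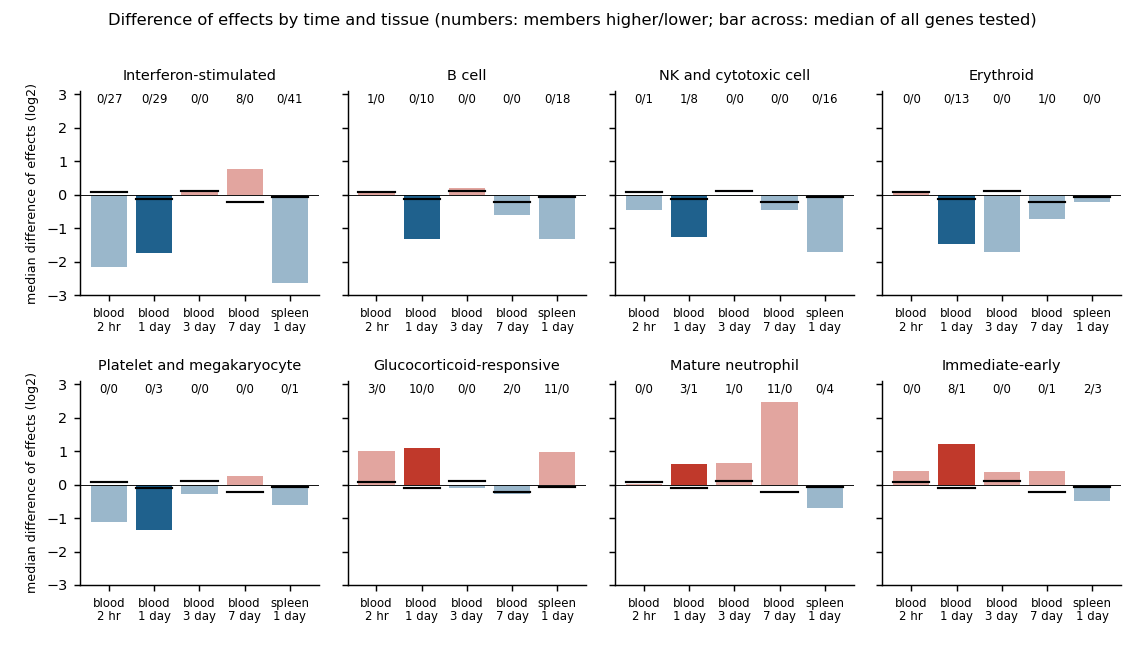
Median difference of effects (y axis, log2, burn effect minus trauma-hemorrhage effect) over the members of 8 gene lists in blood at 2 hr, 1 day, 3 days and 7 days and in spleen at 1 day (x axis). The numbers count members higher and lower at an adjusted p under 0.05, and the black bar across each column is the median of all genes tested. The interferon median is -2.15 at 2 hr, -1.75 at 1 day and -2.63 in spleen, and the erythroid list has called members only at 1 day and, for 1 gene, at 7 days.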

How the data were processed

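RNA of blood leukocytes of individual mice was measured on Affymetrix Mouse Genome 430 2.0 arrays, after RNeasy extraction and NuGEN Ovation Biotin labelling, per the labels' protocols. Linear intensity values were deposited, and the submitters' processing notes name MAS5 and GCOS 1.4 as the authors' software. Each array had a mean of 500.0 with 2% trimmed at either end, and their number limits the precision.

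Of 45037 probe sets 34945 named 1 gene, 932 named more than 1 and 9160 had no gene name. One probe set was kept per gene, the one with the highest mean, avoiding cross-hybridizing ones where there was a choice. It gave 18193 genes, of which 18031 matched the RefSeq gene table. The filter kept 14651 genes, each exceeding the array median on 4 or more of the 64 burn and trauma-hemorrhage blood arrays. Values were fitted as log2(value + 32), so differences of dim genes are understated, with lmFit and eBayes with trend in limma 3.58.1 (R 4.3.3). The fit took all 64 arrays in 16 groups, and p-values were adjusted by Benjamini-Hochberg over all genes at a threshold of 0.05. Errors are SE of the fit. The p-values measure the spread between individual mice. The spleen was fitted in the same way.

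Members and gene lists were chosen with earlier results of these data known. Named genes were the 12 largest called differences in each direction among genes called in all 16 fits leaving out 1 array with a mean of at least 500 in 1 group, up to 5 members of each list with the smallest p, the 6 opposite calls with the smallest p in each direction, and the 4 shared calls in each direction with the largest smaller effect. Xist and Y-linked genes were left out of the named genes.

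Replicate numbers were not taken to pair mice: deviations of the same number correlated at a median of 0.058 over 24 pairs of arrays (-0.21 to 0.236). The fit was tested on simulated data with 50 changed genes at each of 4 sizes. It recovered 6%, 48%, 86% and 98% of log2 differences of 1, 2, 3 and 4, with 3 false calls among 122. Alternatives were another pseudocount or filter, quantile scaling, averaging of a gene's probe sets, the 16 arrays alone, blocks for replicate number and hybridization day, covariates and each array left out.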

Additional observations from a re-analysis of the deposited data

Results flagged for a closer look

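Dixon's test was run on each group of 4 arrays for the summed signals of the 33 lists and the signals of 33 genes, 264 groups in all, and 16 (6.06%) had an array far from the other 3. Chance flags about 1 in 20 groups.

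Of these 16, 6 fell on replicate 2 of the trauma-hemorrhage group. Its sum was 184335 for erythroid genes, where the other 3 arrays had 282361 to 285022, 22208 for class II genes against 81747 to 100609, and 13433 for cell cycle genes against 39072 to 48628. Its clock sum was 9556 against 5934 to 5972. Its signal of Ms4a1 was 1140 against 8006 to 10359, and that of Tspan8 was 203.8 against 4036 to 5695.

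Replicate 3 of the burn sham had signals of 1081 for Mt2, against 41.02 to 73.18, and 589.7 for Gstt1, against 56.92 to 80.37, and a clock sum of 7895 against 8401 to 8469. On the burn arrays replicate 3 had a glycolysis sum of 88013 against 79059 to 80149, and replicate 1 an Mcm4 signal of 5642 against 4927 to 4969. In the trauma-hemorrhage sham replicate 1 had a C3ar1 signal of 94.79 against 287.7 to 341, replicate 2 a Selenon signal of 193.8 against 498.4 to 571.9, replicate 3 a natural killer sum of 33456 against 24610 to 25751, and replicate 4 a heat shock sum of 50381 against 60229 to 61360. Replicate 4 of the trauma-hemorrhage group had a primary granule sum of 244 against 513 to 589.

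The effects of the injuries differed by the interaction contrast itself in 2326 genes, including the 128 that rose after burn and fell after trauma-hemorrhage and the 88 that moved the other way.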

How the results depend on the processing

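Counts of called genes in the difference of effects, in each separate effect and between the injured groups stayed within 1.5 times of their value over the alternatives that used all 16 arrays, and the share of higher calls in the difference was 41.9% to 49.7%. The difference gave 2286 genes with a pseudocount of 1, 1998 with the mean of all probe sets and 2526 with the Gapdh ratio as a covariate, and 1633 of the 2326 genes kept their call with the mean of all probe sets. The fit with the replicate number as a block gave 2342 calls, of which 2291 were among the 2326, and this block moved no other count over all genes by over 1.5 times except that between the shams. Among the gene lists it moved the platelet count in the difference from 3 to 5. Of the list counts in the difference, those lower among class I genes became 4 with the control signal as a covariate, those lower in oxidative phosphorylation 4 with the Gapdh ratio, those higher in it 2 with the control signal, and those lower among apoptosis regulators 5 on the 16 arrays alone. The median over all genes moved from -0.116 to 0.019 with quantile normalization. Leaving out single arrays gave 2015 to 2375 calls in the difference (higher 921 to 1052, lower 1069 to 1323), 3237 to 3772 for burn, 1474 to 2523 for trauma-hemorrhage and 4116 to 4570 between injured groups. The 1474 was without replicate 2 of the trauma-hemorrhage group. Between the shams the count of 5 was 28 with quantile normalization, 1 with the mean of all probe sets, 137 on the 16 arrays alone, 19 with the replicate block, 3 with the hybridization day block, 0 with the Gapdh ratio and 0 to 6 with single arrays left out. The cause was not tested.

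The planned contrast within a hybridization day was not run, because no day held both models. Chosen after seeing the data, the first day of each model alone (2 arrays a group) gave 739 calls in the difference (308 higher, 431 lower), 2006 for burn, 1252 for trauma-hemorrhage, 2662 between injured groups and 2 between shams. The second day gave 975 (467 higher, 508 lower), 2063, 269, 3101 and 0. Fewer arrays enter these fits. Among 188 named genes Hspa4 changed direction, at -0.676 with the mean of all probe sets.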
